A study of Mus musculus with 2 samples.

Results

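The Mir30 family of the mouse comprises 6 microRNA genes, Mir30a, Mir30b, Mir30c-1, Mir30c-2, Mir30d and Mir30e, which lie as pairs at 3 loci. These 6 of the 1973 microRNA genes in the count tables were found by matching stable Ensembl identifiers to GENCODE symbols. The matching used no measured values, but earlier results of these data were known when the members were chosen. They were measured by microRNA sequencing in hearts of B6NCrl mouse embryos at embryonic day 10.5, in 2 libraries of RNA under 30 bases long. Replicate 2 came from a pool of 51 embryos and replicate 1 from a pool of 69 embryos, both of mixed sex and described as healthy. There is 1 group and no treated, mutant or older sample, so genes were compared with each other within a library, and replicate 2 was compared with replicate 1. Each pool gave 1 library, so differences between embryo pools and between library preparations cannot be told apart, and tests on read counts compare these libraries and not conditions.

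A microRNA gene is transcribed as part of a longer RNA that folds into a hairpin, and the enzymes Drosha and Dicer cut the hairpin down to short arms called 5p and 3p. An arm held by an Argonaute protein finds its target messenger RNAs mainly through its seed, bases 2 to 8 from the 5′ end, so genes with the same seed form a family. In the Mir30 family the 5p arms carry the shared seed. Members of the family are known as abundant microRNAs of adult heart muscle, and in rodents miR-30c is known as a repressor of connective tissue growth factor in the heart.

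The mature arms of Mir30e, Mir30a, Mir30c-1 and Mir30c-2 are shown first, because what they share decides which gene a read can be counted for. They come from RefSeq (GRCm38.p6), which holds 4 of the 6 members in the table used here and not Mir30b and Mir30d. Capitals mark the seed.

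miR-30e-5p: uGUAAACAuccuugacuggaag

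miR-30a-5p: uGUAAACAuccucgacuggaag

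miR-30c-5p (from both Mir30c-1 and Mir30c-2): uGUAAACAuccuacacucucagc

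miR-30e-3p: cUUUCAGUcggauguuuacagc

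miR-30a-3p: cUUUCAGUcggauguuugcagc

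miR-30c-1-3p: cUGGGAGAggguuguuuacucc

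miR-30c-2-3p: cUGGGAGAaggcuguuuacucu

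All 4 hairpins carried the 5p seed GUAAACA. On the 3p side Mir30e and Mir30a shared the seed UUUCAGU, and Mir30c-1 and Mir30c-2 shared UGGGAGA. With positions counted from 1 at the 5′ end and the base of miR-30e first, miR-30e and miR-30a differed by the single substitution U13C in the 5p arm and by A18G in the 3p arm. The 5p arms of Mir30c-1 and Mir30c-2 were identical over all 23 bases. Their 3p arms differed by G9A, U12C and C22U, with the base of miR-30c-1 first. The longest stretch shared by the Mir30c-1 and Mir30c-2 hairpins was 28 bases and held the whole 5p arm, against 18 bases for Mir30a and Mir30e and 12 bases for every other pairing of these 4 hairpins. Outside the family, none of the RefSeq mouse microRNA hairpins compared shared a stretch longer than 11 bases with any of the 4.

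The loci differ in their surroundings (mm10, GENCODE M21). Mir30e (ENSMUSG00000065409.1; chromosome 4, 120772606 to 120772697, minus strand) and Mir30c-1 (ENSMUSG00000065490.1; chromosome 4, 120769534 to 120769622) lie 2983 bases apart in introns of Nfyc, on the strand of that gene, which encodes a subunit of the transcription factor NF-Y. Mir30a (ENSMUSG00000065405.2; chromosome 1, 23272269 to 23272339, plus strand) overlaps no other annotated gene. Its partner Mir30c-2 (ENSMUSG00000065567.1; chromosome 1, 23291701 to 23291784) lies 19361 bases downstream, within an exon of the long noncoding RNA gene Gm27028. Mir30d (ENSMUSG00000065437.1; chromosome 15, 68341208 to 68341289, minus strand) lies within an exon of the long noncoding RNA gene Gm20732. Its partner Mir30b (ENSMUSG00000065476.2; chromosome 15, 68337415 to 68337510) lies 3697 bases downstream, with 16 of its bases in an exon of the noncoding transcript Gm26621.

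The libraries held 4789068 counts on the strand of a listed gene in replicate 2 and 4163656 in replicate 1. A gene's level is its own-strand count per 1000000 of these (CPM). A further 2587089 and 2337267 reads were mapped to several places and counted to no gene, which equals 54.0% and 56.1% of the own-strand gene counts. The tissue label was checked with the microRNAs Mir208a, Mir208b and Mir499 of myosin genes. All 3 were detected and together held 69048 CPM in replicate 2 and 34740 CPM in replicate 1. Of 5 listed neural genes of the Mir124 and Mir9 groups, 4 were at 0 in each library. Reads that match several genes of a group are counted to none of them. These zeros therefore do not show that neural cells were absent.

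The family took 5.19% of the counted microRNA reads of the early heart in replicate 2, with a 95% exact interval of 5.17 to 5.21. Its share was 4.61% in replicate 1, with an interval of 4.59 to 4.63, which gives a mean of 4.90% ± 0.413 (SD, n = 2). Intervals here and throughout describe counting error alone, with each read taken as an independent count, and hold no spread between pools. Reads that carry no molecular identifier can be copies of a single molecule, so the intervals may be too narrow even for that. Among other families spread over several loci, the 3 Mir26 genes held 3.06% in each library, the 6 Mir181 genes 0.559% and 0.748%, and the 4 Mir29 genes 0.0512% and 0.0416% in replicates 2 and 1. Each family holds genes that share a whole arm (2 in Mir30, 2 in Mir26, 4 in Mir181 and 2 in Mir29). The counts behind all 4 shares are therefore lower limits. The total they are divided by leaves out reads mapped to several places as well, so the shares themselves could be higher or lower. For this reason the families are not ranked. In tissue, more cells that express a microRNA and more of it per cell cannot be told apart.

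Within the family, 3 genes held nearly all counts, and each came from a different locus. Mir30e, Mir30a and Mir30d together took 99.43% of the family's counts in replicate 2 and 99.44% in replicate 1. Mir30b, Mir30c-1 and Mir30c-2 shared the remaining 0.574% and 0.558%. Reads that match both Mir30c-1 and Mir30c-2 are left out of these counts, so the shares do not measure miR-30c. Shared sequence was not assessed for Mir30b.

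Mir30e, the Nfyc-hosted member, had 131704 counts or 27501 CPM in replicate 2 and 109394 counts or 26273 CPM in replicate 1, a mean of 26887 ± 868 CPM (SD, n = 2). It ranked 10th and 8th among all listed genes in these libraries. Mir30a had 71267 counts (14881 CPM) in replicate 2 and 50771 counts (12194 CPM) in replicate 1, a mean of 13538 ± 1900 CPM. Mir30a is the member best known from work on autophagy in human cells, where it represses Beclin 1.

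Mir30d, the first hairpin of its locus on the minus strand, had 44301 counts (9250 CPM) in replicate 2 and 30677 counts (7368 CPM) in replicate 1, a mean of 8309 ± 1331 CPM. These 3 genes kept the same order in both libraries, with no overlap between the library ranges of neighbours. Counts of Mir30e were 1.85 times those of Mir30a in replicate 2 (95% exact interval 1.83 to 1.86), against 2.15 times in replicate 1 (2.13 to 2.18), and Mir30a exceeded Mir30d 1.61-fold and 1.66-fold.

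The other 3 genes were counted at levels between 36.0 and 132 CPM. Mir30b had 634 counts (132 CPM) in replicate 2 and 543 counts (130 CPM) in replicate 1. Mir30c-1, the second Nfyc-hosted gene, had 481 counts (100.4 CPM) and 377 counts (90.5 CPM). Mir30c-2 had 313 counts (65.4 CPM) and 150 counts (36.0 CPM), a mean of 50.7 ± 20.7 CPM (SD, n = 2).

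Mir30b exceeded Mir30c-1 1.32-fold in replicate 2 (1.17 to 1.49) and 1.44-fold in replicate 1 (1.26 to 1.65), and Mir30c-1 exceeded Mir30c-2 1.54-fold (1.33 to 1.78) and 2.51-fold (2.07 to 3.06). The library ranges of these neighbours did not overlap, but with 2 libraries their order rests on few values. The largest step in the order was from Mir30d down to Mir30b, with ratios of 69.9 and 56.5 in replicates 2 and 1. The order of all 6 was the same when counts were divided by hairpin length, which runs from 71 to 96 bases. On that scale the mean was 292 CPM per base for Mir30e, 191 for Mir30a, 101.3 for Mir30d, 1.37 for Mir30b, 1.07 for Mir30c-1 and 0.603 for Mir30c-2.

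**Figure D1:**
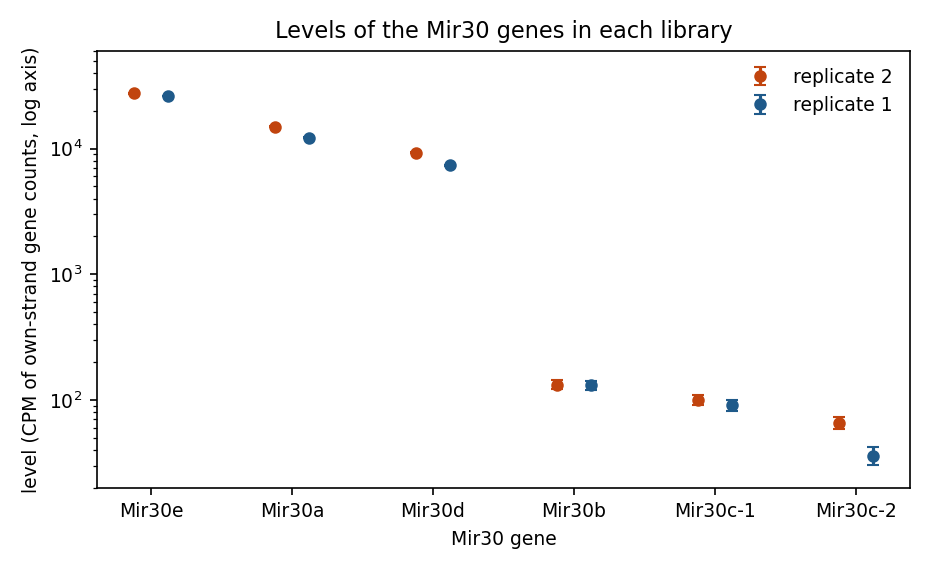
Levels of the 6 Mir30 genes (x axis) as CPM of own-strand gene counts (y axis, log axis), with 1 point for each library and bars for the exact 95% counting interval, which for the 3 highest genes is smaller than the point. Mir30e, Mir30a and Mir30d lie between 7368 and 27501 CPM, and Mir30b, Mir30c-1 and Mir30c-2 between 36.0 and 132 CPM.

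Reads that match several places touch these levels directly. A read of the whole miR-30c-5p arm matches both Mir30c-1 and Mir30c-2, as the sequences above show, and such reads have a row of their own in the tables. The counts of Mir30c-1 and Mir30c-2 are therefore lower limits, and they do not measure miR-30c. Outside the family, 45 genes with RefSeq arms and at least 10 counts in at least 1 library share a whole arm with another gene. Their median level was 35.3 CPM with quartiles of 14.9 and 135 CPM, and 2 of them (4.44%) reached 1000 CPM. The 333 genes with no such arm had a median of 107.5 CPM with quartiles of 8.31 and 1026 CPM, and 84 of them (25.2%) reached 1000 CPM. The lower quartile was thus higher among the genes that share an arm, and the difference between these sets was not tested. How much of the low counts of Mir30c-1 and Mir30c-2 comes from this was not tested, and for Mir30b shared sequence was not assessed here.

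None of the 6 genes had a count on the opposite strand in either library. Taking 3 counts as the limit that a zero permits, opposite-strand reads made up at most 0.00274% of the reads at Mir30e and, at the thinly covered Mir30c-2, at most 0.958% in replicate 2 and 2.00% in replicate 1. Mir30f, annotated on the strand opposite to Mir30e at the same position, is not among the listed genes.

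The balance within each locus was strongly one-sided in both libraries. Mir30e outnumbered Mir30c-1 274-fold in replicate 2 and 290-fold in replicate 1, with log2 ratios of 8.10 (95% exact interval 7.97 to 8.23) and 8.18 (8.03 to 8.33). Mir30a outnumbered Mir30c-2 228-fold in replicate 2 and 338-fold in replicate 1, with log2 ratios of 7.83 (7.67 to 8.00) and 8.40 (8.17 to 8.64). Mir30b was counted 69.9-fold lower than Mir30d in replicate 2 and 56.5-fold lower in replicate 1, with log2 ratios of -6.13 (-6.24 to -6.01) and -5.82 (-5.95 to -5.70).

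On the log2 scale the means were 8.14 ± 0.06 for Mir30e over Mir30c-1, 8.11 ± 0.40 for Mir30a over Mir30c-2 and -5.97 ± 0.22 for Mir30b over Mir30d (SD, n = 2). An exact sign-flip test over 2 libraries cannot give a two-sided p below 0.5, so no test against 0 was made. At the Nfyc locus and at the Mir30a locus the low partner is a Mir30c gene, whose count is a lower limit, so counting the reads left out could only lower these 2 ratios, unless reads of Mir30e or Mir30a were left out as well.

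Whether the balance changed between the libraries was tested on the counts of each pair, which needs no scaling. The balance of Mir30a over Mir30c-2 was lower in replicate 2, with a change of -0.57 on the log2 scale (Fisher's exact test, two-sided, adjusted p = 0.00017 over the 3 pairs). The log2 ratio of Mir30b over Mir30d changed by -0.31 (adjusted p = 0.000503, Fisher's exact test). Because Mir30b is the low gene of its pair, that locus was more one-sided in replicate 2, whereas the Mir30a locus was less so. For Mir30e over Mir30c-1 the change was -0.08, and the difference did not pass (adjusted p = 0.41). These tests ask only whether a change exceeds counting error. For the 2 pairs with a Mir30c gene they leave out reads that match both Mir30c genes. The difference among the 3 changes was not tested.

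**Figure D2:**
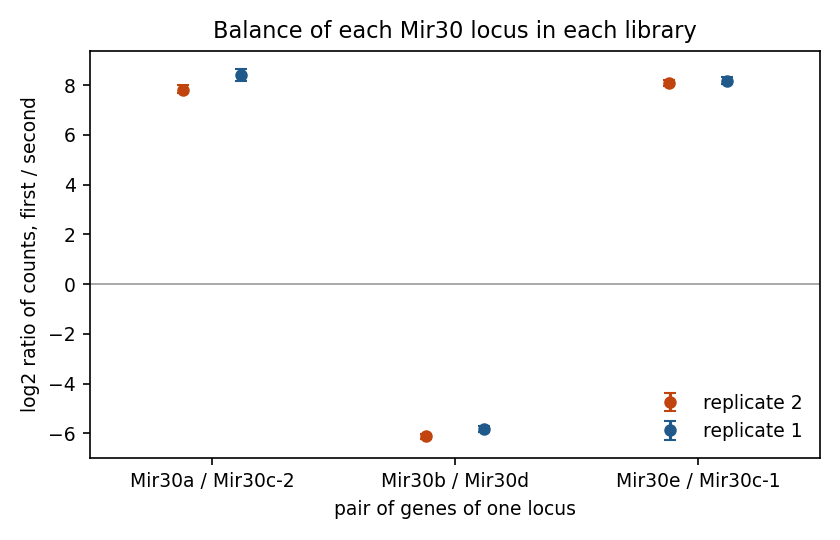
Log2 ratio of own-strand counts of the first over the second gene of each locus (y axis), for the 3 Mir30 loci (x axis), with 1 point for each library and bars for the exact 95% interval. Mir30a over Mir30c-2 stands at 7.83 in replicate 2 and 8.40 in replicate 1, while Mir30e over Mir30c-1 stands at 8.10 and 8.18.

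Other pairs of clustered microRNA genes put these values in context. Some come from clusters of more than 2 genes, such as Mir23a and Mir24-2 with Mir27a, so their ratio depends on the genes chosen. Of 17 such pairs named, 14 had both genes listed, and 13 had at least 10 counts for each gene in each library. Their mean log2 ratios ran from 0.26 to 5.89 in size, against 5.97 to 8.14 for the Mir30 loci. The 10-count minimum left out Mir29c and Mir29b-2, a pair with a barely counted partner, and the other pairs left out had a gene that is not listed. Steep pairs may thus be missing, and no rank is drawn from this. The Mir30d locus, at 5.97 ± 0.22, lay within the spread of the steepest of the 13 at 5.89 ± 0.20 (SD, n = 2). The most one-sided of the 13 were Mir23a over Mir24-2 at 5.89, Mir29a over Mir29b-1 at 5.70 and Mir181a-1 over Mir181b-1 at 5.07. In each of these 3 the gene with fewer counts shares a whole arm with another gene, as Mir30c-1 and Mir30c-2 do, and in the last the other gene does too. A shared arm did not always go with a steep ratio, since Mir16-1 and Mir16-2 share one and Mir15a over Mir16-1 stood at 0.86 and Mir15b over Mir16-2 at 1.53.

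The change of balance between the libraries had a median size of 0.15 over the 13 other pairs and ran from 0.02 to 0.89. The Mir30a locus, at 0.57, and the Mir30d locus, at 0.31, each lay above 10 of the 13, and the Nfyc locus, at 0.08, above 5. The nearest to the Mir30a locus was Mir221 over Mir222 at 0.62, to the Mir30d locus Mir23a over Mir24-2 at 0.28, and to the Nfyc locus Mir15a over Mir16-1 at 0.09. Some of these changes rest on few counts. In replicate 2, Mir221 had 74 counts, Mir222 had 77 and Mir29b-1 had 27. These positions take no account of counting error and were not tested.

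All 6 members had higher levels in replicate 2 than in replicate 1. After TMM scaling, the exact binomial test with Benjamini-Hochberg adjustment over 424 genes called all 6 higher, where 30.0% of tested genes were called higher and 31.1% lower. The members' median log2 ratio was 0.48, against a median of -0.02 and quartiles of -0.51 and 0.42 over all tested genes. With total counts as the scaling, which shifts the median of all tested genes by -0.26, 4 of the 6 were called higher, against 15.6% of genes called higher and 46.2% called lower.

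Mir30c-2 had the largest ratio, 1.12 on the log2 scale (95% exact interval 0.84 to 1.41; adjusted p = 2e-15 from the exact binomial test), on 313 and 150 counts. Mir30d followed at 0.59 (0.57 to 0.61), Mir30a at 0.55 (0.53 to 0.57) and Mir30e at 0.33 (0.32 to 0.34), each with an adjusted p too small for the computer to hold. The intervals of Mir30d and Mir30a lie above that of Mir30e. Mir30c-1 stood at 0.41 (0.21 to 0.61; adjusted p = 6.8e-05, exact binomial test) and Mir30b at 0.28 (0.12 to 0.45; adjusted p = 0.0016). For Mir30c-1 and Mir30c-2 the ratios describe only the reads left after those that match both genes are set aside.

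Under total counts Mir30c-1 at 0.15 and Mir30b at 0.02 did not pass, and Mir30e passed at 0.07. Among all tested genes, 70.8% had a lower ratio than Mir30e, 82.1% than Mir30a, 83.5% than Mir30d and 92.9% than Mir30c-2.

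Markers of other tissues moved between the same libraries. The 3 heart muscle genes held 6.90% of counts in replicate 2 and 3.47% in replicate 1. The 6 Hox-cluster genes held 0.205% and 1.79%, the 7 epithelial genes 0.209% and 0.707%, and the liver gene Mir122 0.0175% and 0.308%, with no listed gene of these lists at 0. The endothelial gene Mir126a held 5.55% and 5.33%, and the 3 red blood cell genes 0.171% and 0.116%. Their part in the higher Mir30 levels of replicate 2 was not tested.

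**Figure D3:**
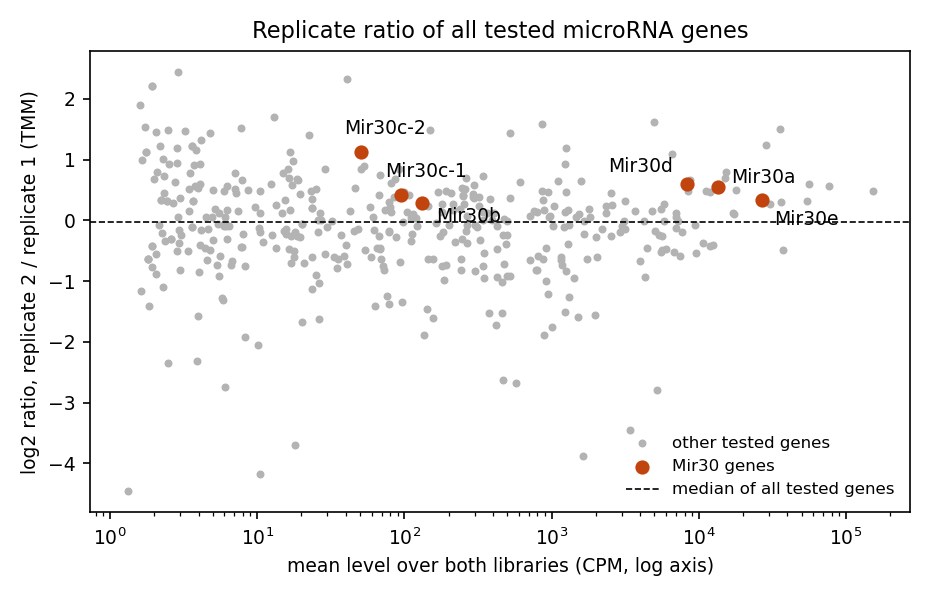
Log2 ratio of replicate 2 over replicate 1 after TMM scaling (y axis) against the mean level in CPM (x axis, log axis) for 424 tested microRNA genes, with the 6 Mir30 genes in orange and the median of all tested genes as a dashed line. The Mir30 genes lie between 0.28 and 1.12, above the median of -0.02.

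Shares within the family, which need no scaling between libraries, showed how the counted reads of the members shifted against each other. These shares too leave out reads that match both Mir30c-1 and Mir30c-2. Mir30e made up 53.0% of family counts in replicate 2 and 57.0% in replicate 1, a difference of -4.05 percentage points. Mir30a made up 28.7% and 26.5%, and Mir30d 17.8% and 16.0%. All 3 shares differed beyond counting error (Fisher's exact test, two-sided, adjusted over the 6 members), with adjusted p of 6e-157 for Mir30e, 1.5e-58 for Mir30a and 1.3e-57 for Mir30d. A lower share of Mir30e raises those of the others, so the 6 tests are not independent. Mir30e itself was higher in replicate 2, at 0.33 on the log2 scale after TMM scaling, but less so than Mir30a at 0.55 and Mir30d at 0.59. Mir30c-2 made up 0.126% and 0.0782% (adjusted p = 1.5e-06, Fisher's exact test). For Mir30c-1, at 0.193% and 0.196% (adjusted p = 0.836, Fisher's exact test), and Mir30b, at 0.255% and 0.283% (adjusted p = 0.0928, Fisher's exact test), the differences did not pass.

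The replicate ratios of partners at a locus were set beside those of genes from different loci. The log2 ratios of the 3 same-locus pairs differed by 0.08, 0.31 and 0.57, a median of 0.31. These are the sizes of the balance changes given above and not a further result. The 12 pairs from different loci differed by 0.04 to 0.84, with a median of 0.24. Every same-locus pair sets an abundant gene against a low one, while pairs from different loci include some of abundant genes alone. The medians therefore compare unlike sets. The closest pair in the family was Mir30a and Mir30d, from chromosomes 1 and 15, at 0.04. All 5 differences that involved Mir30c-2, the member with the fewest counts, were wider than those of the other pairs. Pairs share genes, so these differences are not independent and were not tested.

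Outside the 6 genes, 1 listed gene carries the 5p seed of the family among those with RefSeq arms. Mir384 (ENSMUSG00000065499.1; chromosome X, 105344282 to 105344369) makes an arm that leaves the family sequence after the first 8 bases.

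miR-384-5p: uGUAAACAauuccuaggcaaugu

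Mir384 had 40 counts (8.35 CPM) in replicate 2 and 134 counts (32.2 CPM) in replicate 1. After TMM scaling it was 3.18-fold lower in replicate 2, at -1.67 on the log2 scale (-2.23 to -1.16, adjusted p = 8.4e-12, exact binomial test). It went the other way from all 6 Mir30 genes and made up 0.0161% and 0.0698% of the counts of Mir384 and the Mir30 genes together. Mir6958, which carries the 3p seed of Mir30c-1 and Mir30c-2, had 20 counts (4.18 CPM) and 12 counts (2.88 CPM) and did not pass, at 0.77 (-0.30 to 1.96).

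The genes nearest to each member in level over the 2 libraries were sought among 375 other genes with at least 10 counts in both, by distance in log2(CPM + 1). Mir26b, with 30605 CPM in replicate 2 and 30548 CPM in replicate 1, was nearest to Mir30e at a distance of 0.27. Mir208a, the microRNA of the myosin gene Myh6, with 17434 and 12836 CPM, was nearest to Mir30a at 0.24, and Mir483, with 9131 and 7821 CPM, to Mir30d at 0.09. For the low members these were Mir138-2 for Mir30b at 0.06, Mir486 for Mir30c-1 at 0.04 and Mir670 for Mir30c-2 at 0.20. With 2 libraries, closeness here means a like level in each, and the ratio between the pools can still differ. Mir138-2, for instance, had 134 CPM in replicate 2 and 135 CPM in replicate 1, where Mir30b had 132 and 130 CPM.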

How the data were processed

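The deposited read counts per microRNA gene were used without normalization. They come from 1 alignment file per library on mouse mm10 with GENCODE M4, per the file headers of the README texts. Aligner, settings and adapter trimming: not given in the sources used here. Own-strand counts were used, and rows that name no gene (unmapped, 25.5% and 26.3% of reads; several places, 23.5% and 23.3%; outside genes, 7.41% and 8.98%, in replicates 2 and 1) were left out of library sizes. Symbols and positions came from GENCODE M21, which matched 1894 of 1973 identifiers, on the same assembly.

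For replicate 2 over replicate 1, an exact conditional binomial test (two-sided) was run on the 424 genes that reached 10 counts in either library, with library sizes scaled by TMM (edgeR 4.0.16) over genes with a count and Benjamini-Hochberg adjustment at 0.05. A prior count of 0.5 entered log2 ratios. Exact 95% (Clopper-Pearson) intervals and Fisher's exact test came from scipy 1.17.1. The binomial test was tried on simulated Poisson counts of 424 genes for this comparison. It called 48.0% of changed genes the right way at a fold of 1.25, 74.0% at 1.5, 86.0% at 2 and 98.0% at 4. Of unchanged genes it called 1.79%. The simulation held no spread between pools or preparations, so these rates do not give the error of the test between real replicates. In the real libraries 61.1% of tested genes were called.

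Named genes were the 6 members, genes sharing their seeds, the nearest gene to each member, and the 3 compared families and listed clustered pairs. Members, lists and tests were chosen with earlier results of these data known, and the test of shares within the family was added after the data were seen. Alternatives were total counts or DESeq2 1.42.0 size factors as scaling, counts over both strands, no filter, other prior counts, division by hairpin length, each library alone, and leaving out the most abundant gene. The spread between 2 libraries may be technical in part.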

Additional observations from a re-analysis of the deposited data

How the results depend on the processing

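The order of the 6 levels was the same when counts were divided by hairpin length, the only alternative run that could change it. The family share was 5.78% without the most abundant gene in the denominator, against 4.90%, and it ran from 4.61% to 5.19% with each library alone. The log2 ratio of Mir30b over Mir30d was -6.20 when counts were divided by hairpin length, against -5.97. Leaving out a library moved the other pair ratios no further than the values of the libraries given above. Fisher's test of the pair balance was not challenged by the alternatives, since opposite-strand counts were 0 and prior counts do not enter it. The number of members called higher was 6 under DESeq2 size factors, counts over both strands, no filter, a prior count of 5 and without the most abundant gene, and 4 under total counts, where Mir30c-1 (adjusted p = 0.186, exact binomial test) and Mir30b (adjusted p = 0.858) did not pass. No member was called lower in any of these. Over the alternatives the adjusted p of Mir30b (exact binomial test) ran from 0.00102 with counts over both strands to 0.858, with 0.0154 under DESeq2 size factors, and that of Mir30c-1 from 4.8e-05 to 0.186. With 1 group, no paired analysis was possible because the labels give no second group to pair. Leaving out a library leaves no replicate ratio, so this was not run for the comparison of libraries. The counts of Mir30c-1 and Mir30c-2 leave out reads of the arm that both genes share, which more depth would not change.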
